A study of Mus musculus with 9 samples.

Results

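The aminoacyl-tRNA synthetases are the enzymes that load each tRNA with its amino acid. The 38 genes described here were chosen by symbol from the 55471 genes of the count table: an amino acid letter followed by "ars", with or without 1 or 2, together with Eprs, Farsa, Farsb and Tarsl2. Of these, 21 encode enzymes of the cytosol and 17, with names ending in 2, enzymes of the mitochondrion. Tarsl2, a paralog of the cytosolic threonyl-tRNA synthetase, was counted with the cytosolic genes in spite of its last digit. Gars and Kars encode enzymes of both compartments and were also counted with the cytosolic genes.

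The cytosolic enzymes charge the tRNAs used for all proteins made outside the mitochondrion, and several of them sit in the multi-synthetase complex, a large assembly held together by scaffold proteins. The mitochondrial enzymes are made from nuclear genes, are imported, and charge the tRNAs used to translate the few proteins encoded by mitochondrial DNA. Some synthetases have second functions: Wars, the tryptophanyl-tRNA synthetase, is a classical interferon-inducible gene, and Eprs, which joins glutamyl and prolyl activities in 1 protein, can leave the complex to repress translation of inflammatory transcripts.

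RNA was measured in dendritic cells (DCs) grown from wild-type mouse bone marrow with GM-CSF, a culture that yields DCs and macrophage-like cells together. Per the study's methods, the marrow came from female C57BL/6 mice aged 8 to 20 weeks. Each of 3 groups had 3 libraries, lettered A to C: unstimulated DCs, DCs given LPS (lipopolysaccharide, a bacterial ligand of the receptor TLR4) at 100 ng/mL, and DCs given IFN-β (a type I interferon) at 1000 U/mL, the last 2 for 6 h. The labels do not say whether the letters mark animals or cultures, so p-values measure the spread between these libraries, which may be technical. Values are counts scaled to a common library size (CPM) with TMM factors, which correct for differences in library composition, and a gene was called changed at an adjusted p under 0.05 in edgeR's quasi-likelihood test over 16260 tested genes.

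The libraries held 33425803 to 43735199 counts, and all 38 synthetase genes passed the filter on low counts. TMM factors were 1.18 to 1.26 without stimulus, 0.783 to 0.841 with LPS and 0.977 to 1.02 with IFN-β, so the scaling itself moved with the groups. Over all tested genes the median log2 fold change was -0.04 for LPS and -0.02 for IFN-β, and without TMM factors (library-size scaling) it was -0.62 and -0.32. The DC markers Itgax and Cd74 were abundant, with means of 1374.8 and 2537.3 CPM in unstimulated cells. Of the 8 DC and macrophage markers, 5 were called higher and 1 lower with LPS and 0 with IFN-β in edgeR's test (median log2 fold changes 0.34 and 0.07; Itgam was called with each in the fit with the library letter as a block). Under library-size scaling 1 was called higher and 3 lower with LPS and 0 higher and 2 lower with IFN-β, and the LPS values of Itgax, H2-Ab1 and Cd74 turned negative (-0.36, -0.13 and -0.07). The part of this shift in the LPS values below was not tested. The 12 markers of neutrophils, lymphocytes and red cells summed to 8.63 to 21.3 CPM in any library, 8 of them never exceeded 3 counts, and Hbb-bs was at 0 throughout. The neutrophil and monocyte gene S100a8 made up most of this sum, at means of 10.0, 12.8 and 8.23 CPM without stimulus, with LPS and with IFN-β. It was called with each stimulus in the fit with the library letter as a block (adjusted p = 0.00154 and 0.0205), and its part in the synthetase values was not tested. Of 8 genes known to respond to stimulation, 8 were higher with LPS and 7 with IFN-β. In bulk RNA, fewer cells of a type and less RNA per cell cannot be told apart.

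With LPS, 27 of the 38 synthetase genes fell and 4 rose. That is 71.1% lower and 10.5% higher, where 35.4% of all tested genes were called lower, 32.8% higher and 68.2% in either direction. With IFN-β, 30 fell and 4 rose, or 78.9% and 10.5%, against 23.3% lower, 23.6% higher and 46.9% in either direction among all tested genes. The 2 stimuli shared their unstimulated libraries. Side by side, 27 genes were lower with each, and Wars, Rars and Kars were higher with each. No gene was called in opposite directions, and 3 genes, Wars2 and Lars2 among them, were called with neither. The fold change was larger in size with LPS than with IFN-β for 29 of the 38. The matching shares of all tested genes are not given here, so these side-by-side counts have no background.

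**Figure D1:**
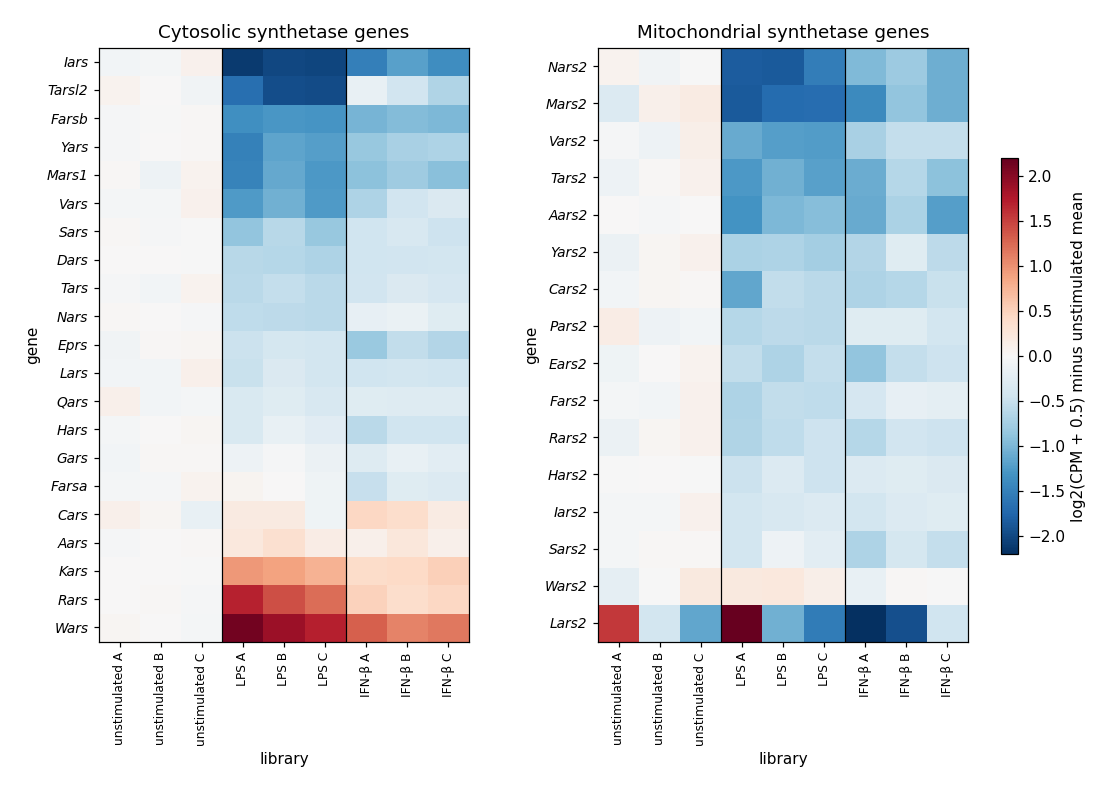
Level of each synthetase gene in each of the 9 libraries, as log2(CPM + 0.5) minus the mean of the 3 unstimulated libraries, with the cytosolic genes on the left and 16 mitochondrial genes on the right, ordered by the LPS response. Most rows turn blue with LPS and paler blue with IFN-β; Wars, Rars and Kars turn red, and the Lars2 row follows no group, its strongest values lying at the ends of the colour scale.

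Of the 21 cytosolic genes, 14 fell and 4 rose with LPS, and 16 fell and 4 rose with IFN-β. Their median log2 fold changes were -0.43 and -0.42. Of the 17 mitochondrial genes, 13 fell with LPS and 14 with IFN-β and none rose, with medians of -0.64 and -0.59. Under library-size scaling both families kept these directions with as many or more genes lower, at 18 of 21 and 16 of 17 for LPS and 16 of 21 and 16 of 17 for IFN-β. Fewer cytosolic genes were then called higher, 3 with LPS and 1 with IFN-β. The median over all tested genes also moved down under this scaling, to -0.62 with LPS and -0.32 with IFN-β. The share of all genes called under it is not given here, so these counts have no background.

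Wars was the gene that rose most. It stood at 49.4, 48.7 and 46.5 CPM without stimulus (libraries A, B and C, the order kept throughout), at 212.4, 178.9 and 158.9 CPM with LPS, and at 121.3, 103.5 and 108.5 CPM with IFN-β. The 3 groups did not overlap. LPS raised it 3.80-fold (log2 fold change 1.93 ± 0.11 SE, adjusted p = 6.9e-08, edgeR's quasi-likelihood test) and IFN-β 2.31-fold (1.21 ± 0.10, adjusted p = 9.5e-06). The level with IFN-β was lower than with LPS by a tested difference (log2 -0.72 ± 0.10, adjusted p = 0.00018). Exact permutation tests of 3 libraries against 3 cannot go below p = 0.1 and gave that value for each of these contrasts.

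Rars, the arginyl-tRNA synthetase of the complex, stood at 57.0, 58.0 and 56.0 CPM without stimulus, at 184.8, 152.3 and 135.0 CPM with LPS, and at 81.6, 75.1 and 78.8 CPM with IFN-β. It rose 2.76-fold with LPS (log2 1.46 ± 0.10, adjusted p = 3.7e-07) and 1.38-fold with IFN-β (0.46 ± 0.10, adjusted p = 0.00331). Kars, the lysyl-tRNA synthetase, was at 58.4, 58.8 and 57.9 CPM, then 113.9, 107.6 and 99.8 CPM with LPS and 77.7, 79.0 and 83.9 CPM with IFN-β. Its rise was 1.83-fold with LPS (0.87 ± 0.06, adjusted p = 5.9e-07) and 1.37-fold with IFN-β (0.46 ± 0.06, adjusted p = 0.00023). For both genes the groups did not overlap and the LPS level exceeded the IFN-β level (log2 -1.0 ± 0.10 and -0.42 ± 0.06 for IFN-β minus LPS). Under library-size scaling the LPS rises of Rars and Kars remained called at 0.88 and 0.29, whereas both IFN-β rises came to 0.15 and were not called (adjusted p = 0.134 and 0.056). The difference of Kars between IFN-β and LPS was then -0.14 and not called (adjusted p = 0.0777), and that of Rars was -0.72 and called. Within the LPS group, library A was highest for all 3 genes and library C lowest.

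The fourth gene called higher differed between the stimuli. Aars, the alanyl enzyme, was 93.3 to 96.7 CPM without stimulus and 106.4 to 120.9 CPM with LPS (log2 0.25 ± 0.07, adjusted p = 0.00694), but library-size scaling turned it to -0.34, called lower. With IFN-β it was 102.5 to 112.6 CPM and not called (0.16, adjusted p = 0.0796), although the fit with the library letter as a block called it (adjusted p = 0.0295). Exons of Exosc6 on the same strand and of Gm24103 on the opposite strand overlap 1403 bases of Aars, 15.1% of its exonic length. The part of this overlap in the Aars values was not tested. Cars, the cysteinyl enzyme, was called with IFN-β (0.34 ± 0.11, adjusted p = 0.0236; 0.04 and not called under library-size scaling) and not with LPS (0.11, adjusted p = 0.389). Its IFN-β call held in 6 of the 9 fits that left out 1 library, and was lost without unstimulated library C, IFN-β library A or IFN-β library B.

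**Figure D2:**
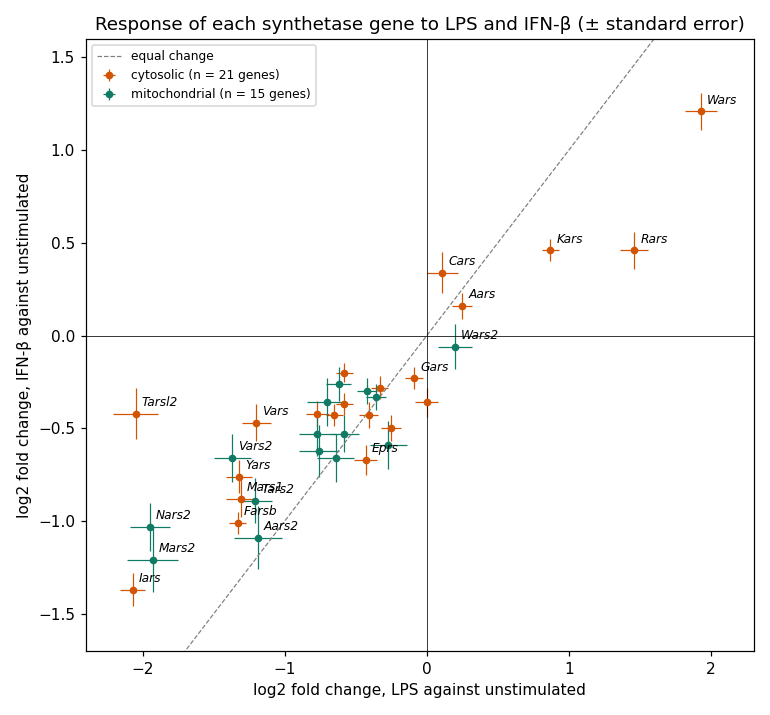
Log2 fold change with LPS (horizontal) against that with IFN-β (vertical) for 21 cytosolic and 15 mitochondrial synthetase genes, with bars of ± 1 standard error and a dashed line of equal change. Lars2, whose standard errors exceed 1, and 1 further gene are left out; Wars lies alone at upper right, and Tarsl2 lies far above the dashed line at left. The 2 axes share the unstimulated libraries.

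Iars, the isoleucyl-tRNA synthetase of the complex, was the cytosolic gene that fell furthest. Its levels were 76.5, 77.8 and 85.6 CPM without stimulus, 18.1, 19.6 and 19.4 CPM with LPS, and 27.7, 34.5 and 30.8 CPM with IFN-β. It was 4.2-fold lower with LPS (log2 -2.07 ± 0.09, adjusted p = 1.6e-08) and 2.58-fold lower with IFN-β (-1.37 ± 0.09, adjusted p = 1.6e-06), again without overlap between groups. In the GENCODE transcripts, 14.7% of the 31-base words of Iars also occur in other genes, nearly all in the processed pseudogene Gm4849, so its count is uncertain to that extent.

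Among genes called between the stimuli, Tarsl2 separated them most. It was at 10.7, 10.1 and 9.50 CPM without stimulus, at 2.87, 2.24 and 2.21 CPM with LPS, and at 8.99, 7.44 and 6.19 CPM with IFN-β. The fall was 4.14-fold with LPS (log2 -2.05 ± 0.16, adjusted p = 7.9e-07) and 1.33-fold with IFN-β (-0.42 ± 0.14, adjusted p = 0.0326), the latter called in 5 of the 9 fits that left out 1 library and lost without unstimulated library A or B or IFN-β library B or C (log2 -0.42 to -0.29). The IFN-β level was 3.10-fold above the LPS level (log2 1.63 ± 0.16, adjusted p = 1.3e-05). Its classical paralog Tars ran from 40.6 to 44.4 CPM without stimulus, 27.6 to 29.2 CPM with LPS and 31.5 to 33.8 CPM with IFN-β, changes of -0.58 and -0.37.

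Farsa and Farsb encode the alpha and beta subunits of 1 enzyme, the phenylalanyl-tRNA synthetase, and moved apart. Farsb was at 38.0, 38.3 and 39.3 CPM without stimulus, 14.9, 15.6 and 15.4 CPM with LPS, and 18.8, 19.6 and 19.2 CPM with IFN-β. It fell 2.52-fold with LPS (log2 -1.33 ± 0.06, adjusted p = 2.3e-08) and 2.01-fold with IFN-β (-1.01 ± 0.06, adjusted p = 1.2e-06). Farsa was at 33.4, 33.7 and 36.5 CPM without stimulus and at 36.1, 34.8 and 32.4 CPM with LPS, overlapping ranges (log2 0.00 ± 0.08, adjusted p = 0.971; -0.59 and called lower under library-size scaling). With IFN-β it was at 24.1, 28.5 and 27.9 CPM and fell by 0.36 on the log2 scale (adjusted p = 0.00374). The exons of Farsb overlap those of Sgpp2 on the opposite strand over 248 bases, 9.5% of its exonic length.

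Mars1, the cytosolic methionyl enzyme, was at 32.7, 29.8 and 34.1 CPM without stimulus, 11.3, 14.5 and 13.1 CPM with LPS, and 16.9, 18.6 and 16.8 CPM with IFN-β. It was 2.47-fold lower with LPS (log2 -1.31 ± 0.10, adjusted p = 7.4e-07) and 1.85-fold lower with IFN-β (-0.88 ± 0.10, adjusted p = 4.6e-05). Its last exon overlaps the stress factor gene Ddit3 on the opposite strand over 68 bases. Yars and Vars, the tyrosyl and valyl enzymes, also fell past 1 log2 unit with LPS, at -1.32 ± 0.09 and -1.20 ± 0.10, and by 0.76 and 0.47 with IFN-β. The remaining cytosolic genes called lower with LPS (Dars, Eprs, Hars, Lars, Nars, Qars, Sars and Tars) fell by 0.25 to 0.77.

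Eprs and Hars were lower with IFN-β than with LPS. Eprs was at 118.0, 126.4 and 127.3 CPM without stimulus, 88.6, 94.3 and 93.5 CPM with LPS, and 70.0, 84.5 and 79.2 CPM with IFN-β. IFN-β lowered it by 0.67 ± 0.08 (adjusted p = 5.4e-05) and LPS by 0.43 ± 0.08 (adjusted p = 0.00044). The difference of -0.24 passed the test (adjusted p = 0.0211), as did that of Hars (-0.24, adjusted p = 0.0149), but under library-size scaling both came to 0.03 and were not called. Both calls were also lost without LPS library B or IFN-β library A (-0.23 to -0.18). Gars, the glycyl enzyme of both compartments, was at 79.5, 84.1 and 84.2 CPM, then 76.1, 81.0 and 75.2 CPM with LPS and 68.1, 73.3 and 70.6 CPM with IFN-β. It was not called with LPS (-0.09, adjusted p = 0.186; -0.68 and called lower under library-size scaling) and fell by 0.23 ± 0.06 with IFN-β (adjusted p = 0.00971).

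Directly compared, IFN-β libraries exceeded LPS libraries for 10 of the 21 cytosolic genes and were below them for 6 (Wars, Rars, Kars, Eprs, Farsa and Hars). The mitochondrial genes gave 4 higher (Nars2, Mars2, Vars2 and Fars2) and none lower. Over all 38 genes this was 36.8% higher and 15.8% lower, where 25.8% and 23.3% of tested genes were called higher and lower and 49.1% in either direction. The median differences were 0.21 and 0.12 on the log2 scale against 0.02 for all genes. Library-size scaling gave 13 higher and 2 lower cytosolic genes and 11 higher mitochondrial genes. The median over all tested genes was then 0.29, and the share of all genes called under this scaling is not given here. With the library letter as a block, Cars, Tars2, Gars and Sars2 were called as well (adjusted p = 0.00166, 0.00976, 0.039 and 0.0327, against 0.099, 0.057, 0.0887 and 0.0698 without it).

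The rise of 3 genes against the fall of most others changed the make-up of the cytosolic synthetase RNA. Summed over the 21 genes, the level was 1195.9, 1198.2 and 1221.8 CPM without stimulus, 1238.1, 1215.1 and 1115.0 CPM with LPS, and 1050.4, 1086.1 and 1057.2 CPM with IFN-β. With TMM factors the LPS sums thus overlapped the unstimulated ones and the IFN-β sums lay below both. Under library-size scaling, an alternative for these sums chosen after seeing the data, they were 1412.0 to 1541.3 CPM without stimulus, 937.2 to 1017.0 CPM with LPS and 1025.4 to 1107.1 CPM with IFN-β, so that LPS lay lowest and no groups overlapped; the change in amount depends on the scaling. Wars, Rars and Kars together made up 13.1% to 13.8% of this sum without stimulus, 35.3% to 41.3% with LPS and 23.7% to 26.7% with IFN-β. Wars alone went from 3.81% to 4.13% up to 14.2% to 17.2% with LPS and 9.53% to 11.6% with IFN-β, and Iars went from 6.39% to 7.01% down to 1.46% to 1.74% and 2.64% to 3.17%. These shares are ratios within a library and do not depend on the scaling between libraries.

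**Figure D3:**
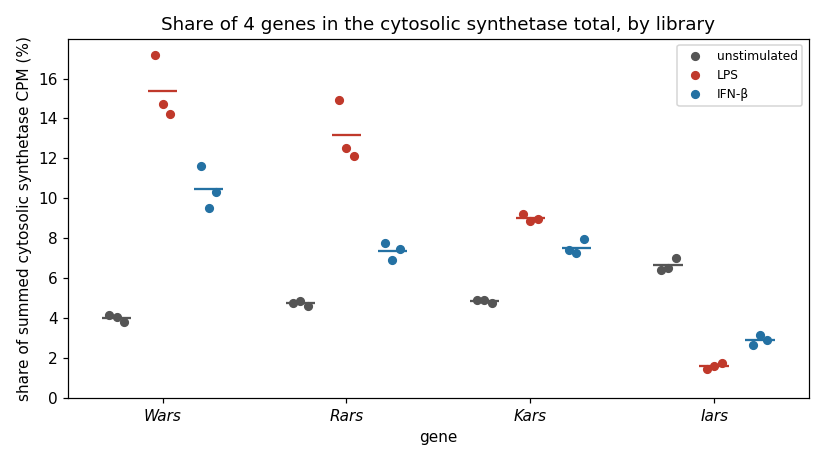
Share of Wars, Rars, Kars and Iars in the summed CPM of the 21 cytosolic synthetase genes, in percent; each point is 1 library and each bar the mean of 3. For each of the 4 genes the LPS, IFN-β and unstimulated points do not overlap, and LPS lies farthest from unstimulated.

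Ranked per length, as CPM per kilobase of the principal transcript, the most abundant synthetase transcripts of unstimulated cells were Nars (41.6 ± 0.697, SD, n = 3), Gars (34.7 ± 1.14), Kars (29.1 ± 0.224), Rars (27.0 ± 0.466) and Wars (26.4 ± 0.831). Rars and Wars differed by less than the sum of their SDs. With LPS, Wars stood first at 100.5 ± 14.8, followed by Rars at 74.6 ± 12 and Kars at 53.3 ± 3.54. With IFN-β, Wars was again first at 60.9 ± 5.04, followed by Kars at 39.9 ± 1.64, Rars at 37.2 ± 1.54 and Nars at 36.3 ± 1.45. By the same measure Kars and Rars, or Rars and Nars, could not be ordered with IFN-β. With LPS, Wars and Rars also differed by less than the sum of their SDs. Wars was nevertheless above Rars in each LPS library, at 212.4, 178.9 and 158.9 CPM against 184.8, 152.3 and 135.0 CPM. Its principal transcript is the shorter (1824 against 2109 bases), so this order holds per kilobase too. The median cytosolic gene was at 18.9, 11.7 and 14.1 CPM per kilobase without stimulus, with LPS and with IFN-β, and the median mitochondrial gene, Lars2 left out, at 3.17, 2.48 and 2.46.

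The 8 genes of the multi-synthetase complex did not move as a unit. Rars and Kars rose while Dars, Eprs, Iars, Lars, Mars1 and Qars fell with each stimulus, and their LPS responses spanned 3.53 log2 units. The 13 cytosolic genes outside the complex gave 2 higher and 8 lower with LPS and 2 higher and 10 lower with IFN-β. Of the 3 genes for the scaffold, Aimp2 fell by 1.28 with LPS and 0.95 with IFN-β, Aimp1 by 0.20 with LPS (and -0.18 with IFN-β, adjusted p = 0.0568, or 0.0414 with the letter as a block), and Eef1e1 by 0.56 with IFN-β (and -0.12 with LPS, adjusted p = 0.453). A split by catalytic fold, class I or class II, left both directions in each cytosolic class, with 2 of 9 and 2 of 11 genes higher with LPS.

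Among the mitochondrial genes, Nars2 and Mars2 had the largest falls with LPS and differed from each other by less than their standard errors. Nars2, the asparaginyl enzyme, was at 8.41, 7.52 and 7.87 CPM without stimulus, 1.88, 1.84 and 2.43 CPM with LPS, and 3.82, 4.33 and 3.48 CPM with IFN-β. The changes were 3.87-fold (log2 -1.95 ± 0.14, adjusted p = 5.5e-07) and 2.05-fold (-1.03 ± 0.13, adjusted p = 0.00013). Mars2, the methionyl enzyme, was at 7.80, 10.5 and 11.0 CPM, then 2.34, 2.65 and 2.7 CPM with LPS and 3.35, 5.10 and 4.31 CPM with IFN-β. It fell 3.81-fold with LPS (-1.93 ± 0.18, adjusted p = 4e-06) and 2.31-fold with IFN-β (-1.21 ± 0.17, adjusted p = 0.00026). Both genes showed 3 separate groups, with IFN-β in between.

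Vars2, the valyl enzyme, was at 5.02, 4.69 and 5.62 CPM without stimulus, 2.09, 1.92 and 1.90 CPM with LPS and 2.90, 3.40 and 3.40 CPM with IFN-β (log2 -1.37 ± 0.13 and -0.66 ± 0.13). Tars2, the threonyl enzyme, was at 20, 22.0 and 23.0 CPM, then 8.77, 10.2 and 9.15 CPM with LPS and 9.86, 13.9 and 11.3 CPM with IFN-β (-1.21 ± 0.12 and -0.89 ± 0.12). Aars2, the alanyl enzyme, was at 7.09, 6.87 and 7.11 CPM, then 2.51, 3.29 and 3.41 CPM with LPS and 3.0, 4.17 and 2.76 CPM with IFN-β (-1.19 ± 0.17 and -1.09 ± 0.17). For Tars2 and Aars2 the LPS and IFN-β libraries overlapped, and the tested differences were not called (adjusted p = 0.057 and 0.656). The exons of Vars2 overlap an antisense locus, Gm20483, over 465 bases.

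Cars2, Ears2, Fars2, Hars2, Iars2, Pars2, Rars2 and Yars2 fell with both stimuli, by 0.36 to 0.77 with LPS and 0.26 to 0.66 with IFN-β. Sars2, the seryl enzyme, fell with IFN-β (-0.59 ± 0.13, adjusted p = 0.00407) and was not called with LPS (-0.27, adjusted p = 0.0954), but was called with the letter as a block (adjusted p = 0.0444). The IFN-β call of Pars2 (adjusted p = 0.042) held in 2 of the 9 fits that left out 1 library, those without unstimulated library B or LPS library A, and that of Fars2 (adjusted p = 0.0287) in 6, lost without unstimulated library C or IFN-β library A or C. For Iars2, 24.2% of the exonic length overlaps Rab3gap2 and a further locus on the opposite strand, and without strand such reads cannot be told apart.

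Wars2, the mitochondrial partner of Wars, did not follow it. It was at 5.45, 6.27 and 7.42 CPM without stimulus, 7.43, 7.57 and 6.97 CPM with LPS, and 5.60, 6.48 and 6.30 CPM with IFN-β. Stimulated and unstimulated libraries overlapped, with log2 fold changes of 0.20 ± 0.12 (adjusted p = 0.174) and -0.06 ± 0.12 (adjusted p = 0.713); under library-size scaling these were -0.39 and -0.37, called lower (adjusted p = 0.0269 and 0.0429).

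For 15 amino acid pairings with a gene in each compartment, the ratio of the cytosolic to the mitochondrial count was taken within each library, which removes the scaling between libraries. The median change of the log2 ratio over these pairings was 0.21 with LPS and 0.18 with IFN-β. Rars to Rars2 changed most with LPS, from log2 ratios of 2.13, 1.98 and 1.87 to 4.38, 3.99 and 3.72, a 4.10-fold change. Wars to Wars2 went from 3.18, 2.96 and 2.65 to 4.83, 4.56 and 4.51 with LPS, and to 4.44, 4.0 and 4.1 with IFN-β. Iars to Iars2 moved the opposite way, from 0.45, 0.49 and 0.48 to -1.26, -1.20 and -1.26 with LPS and to -0.65, -0.43 and -0.63 with IFN-β, so that the mitochondrial gene held more counts than the cytosolic one in every stimulated library. With IFN-β, Aars to Aars2 went from 3.71, 3.79 and 3.76 to 5.09, 4.75 and 5.21, a change of 1.26 that could not be ranked against the 1.25 of Wars to Wars2, since they differ by less than the spread of the libraries (SD 0.24 for Aars to Aars2 and 0.23 for Wars to Wars2 with IFN-β). The groups did not overlap for these changes, and 45 exact permutation tests, 2-sided, gave at best p = 0.1, the smallest possible, or 0.155 after Benjamini-Hochberg adjustment. The change of 1.23 for Lars to Lars2 with IFN-β rested on Lars2 and its groups overlapped (exact permutation p = 0.4).

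**Figure D4:**
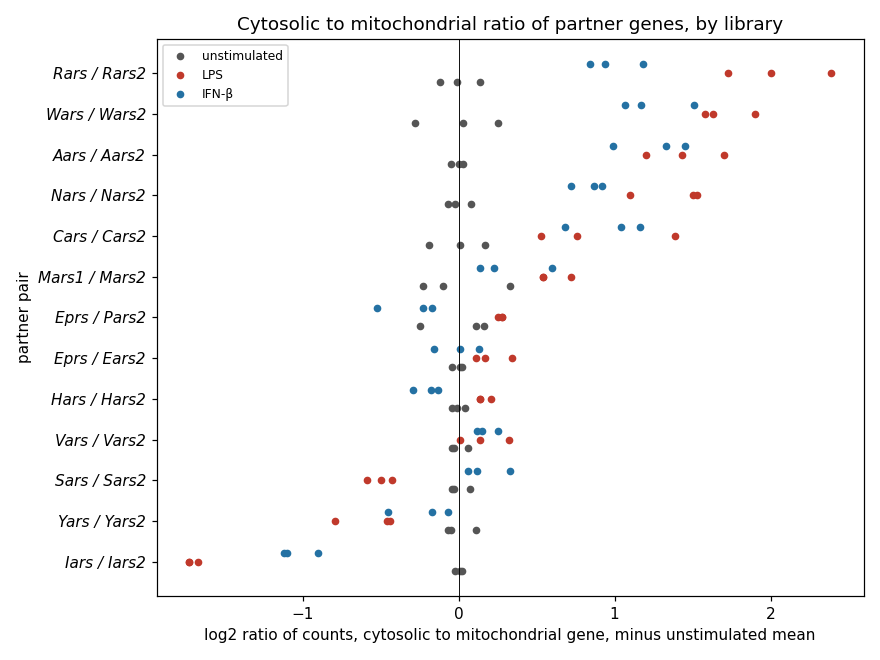
Log2 ratio of counts, cytosolic to mitochondrial gene, for 13 partner pairs in each of the 9 libraries, minus the mean of the unstimulated libraries; Lars and Lars2 and 1 further pair are left out. Points of LPS and IFN-β lie to the right of 0 for Rars, Wars, Aars, Nars, Cars, Mars1 and Vars and to the left for Iars and Yars. For Mars1 and Yars the IFN-β points overlap the unstimulated ones, and for Vars the LPS points do.

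Summed without Lars2, the mitochondrial genes went from 203.5, 209.1 and 223.2 CPM to 129.4, 141.0 and 141.7 CPM with LPS and to 140.8, 159.2 and 152.6 CPM with IFN-β. Under library-size scaling the sums were 240.3 to 281.6, 101.3 to 119.1 and 137.5 to 162.3 CPM. The log2 ratio of the cytosolic to this mitochondrial sum was 2.45 to 2.55 without stimulus, 2.98 to 3.26 with LPS and 2.77 to 2.90 with IFN-β, 3 ranges that did not overlap. This ratio includes Wars, Rars and Kars. They held 13.1% to 13.8% of the cytosolic sum without stimulus, 35.3% to 41.3% with LPS and 23.7% to 26.7% with IFN-β. The ratio without these 3 genes is not given here, so the change cannot be read as one of the whole cytosolic family.

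Lars2, the mitochondrial leucyl enzyme, could not be read as the others. Its raw counts were 8087, 2319 and 1371 without stimulus, 13588, 1138 and 762 with LPS, and 496, 666 and 1848 with IFN-β. Library A was thus the highest without stimulus and with LPS and the lowest with IFN-β, and the groups overlapped. The log2 fold changes were 0.90 ± 1.07 and -1.84 ± 1.12 (adjusted p = 0.476 and 0.202). Among the other 37 synthetase genes the largest ratio of highest to lowest library in any group was 1.55, for Cars2. Over the 9 libraries, the tested genes most like Lars2 in log2 CPM were Gm24187 (Pearson r = 0.996), Gm15564 (0.991) and Mir6236 (0.984), given as a description over libraries that share groups and depth. Mir6236 had 1631, 459 and 148 counts, then 2984, 261 and 163 with LPS and 35, 90 and 324 with IFN-β. A 72-base stretch of the Gm15564 transcript matched a Lars2 transcript at 98.6% identity, from base 3278 of its 3894. The same search gave no match for Gm24187 or Mir6236. The mitochondrial rRNA genes mt-Rnr1 and mt-Rnr2 had r of 0.56 and 0.209. The libraries were made from rRNA-depleted total RNA, and the part of rRNA-like reads in the Lars2 counts was not tested. Leaving Lars2 out, the mitochondrial medians were -0.67 with LPS and -0.56 with IFN-β.

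**Figure D5:**
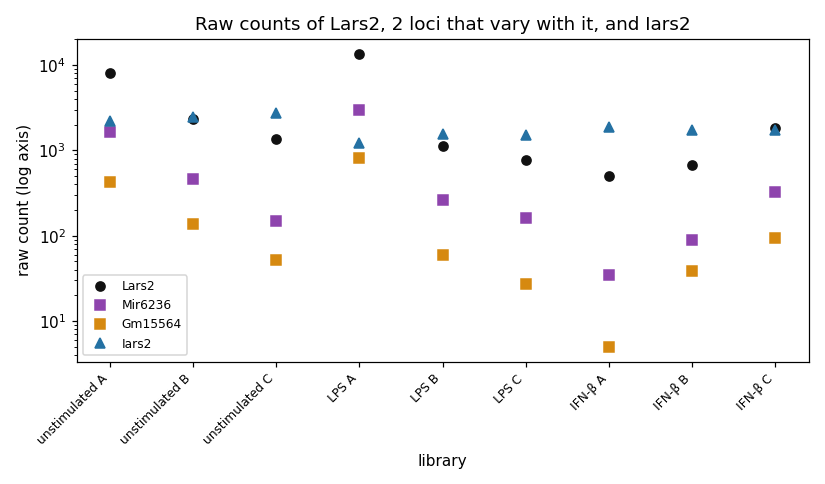
Raw counts, on a log axis, of Lars2, Mir6236, Gm15564 and, for comparison, Iars2 in each of the 9 libraries. Lars2, Mir6236 and Gm15564 run together from library to library while Iars2 stays within a narrow range in each group.

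Several cytosolic synthetase genes are known targets of ATF4, the factor made when amino acids run short, which binds the C/EBP-ATF response element. RefSeq promoter sequences (GRCm38.p6, 250 bases before to 50 after the start) were at hand for 28 of the 38 genes, 14 in each class. The letters TGATGNAA, on either strand, occurred for 5 of the 14 cytosolic genes (35.7%) and 0 of the 14 mitochondrial ones. Among all 27025 genes with promoters, 4.51% held them in any of their promoters. Matches in these 5 genes are shown because they set the classes apart; each line is the gene's strand, 5′ to 3′, with the match in capitals, and matches on the opposite strand read as the reverse complement.
Aars, chr8:111033840-111033869 (+), position 10: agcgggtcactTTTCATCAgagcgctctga
Gars, chr6:55037960-55037989 (+), position -30: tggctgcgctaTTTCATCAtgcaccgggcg
Iars, chr13:49682126-49682155 (+), position 8: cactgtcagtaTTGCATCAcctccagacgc
Tars, chr15:11399655-11399684 (-), position -15: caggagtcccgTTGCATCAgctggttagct
Yars, chr4:129189895-129189924 (+), position 4: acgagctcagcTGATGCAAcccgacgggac

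Positions count from the annotated start, with negative numbers upstream. With TMM factors the 5 genes that hold these letters did not share a response. With LPS, Aars was at 0.25, Gars at -0.09, Tars at -0.58, Yars at -1.32 and Iars at -2.07 on the log2 scale. Under library-size scaling all 5 were called lower with LPS, at -0.34, -0.68, -1.16, -1.9 and -2.65 in the same order. The part of these letters in the responses was not tested.

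Interferon-related letters were found in few of these promoters. GAAANNGAA, the core of the interferon-stimulated response element, occurred for 1 cytosolic gene (Qars, 7.14%) and 0 mitochondrial ones, against 9.76% of all genes. TTCNNNGAA, the core of the STAT element, occurred for 2 cytosolic genes (Aars and Kars, 14.3%) and 1 mitochondrial gene (Nars2, 7.14%), against 9.55% of all genes. The 3 genes with TTCNNNGAA did not share a response: on the log2 scale with LPS and IFN-β, Kars was at 0.87 and 0.46, Aars at 0.25 and 0.16 (the latter not called; -0.34 and -0.15 under library-size scaling) and Nars2 at -1.95 and -1.03. The match of Kars is shown as 1 example. The promoters of Wars and Rars were not analysed here. GCGCATGCG, the letters bound by NRF1, a factor of genes for mitochondrial proteins, occurred in Vars2 and Wars2 (14.3%). They occurred in no cytosolic promoter, against 1.95% of all genes. With LPS and IFN-β, Vars2 was at -1.37 and -0.66, called lower, and Wars2 at 0.20 and -0.06, not called. Under library-size scaling both genes were called lower with each stimulus (Vars2 -1.96 and -0.97, Wars2 -0.39 and -0.37). The part of these letters was not tested, and the match of Wars2 is shown as 1 example. CACGTG, the E-box, occurred in 4 cytosolic promoters (28.6%) and 1 mitochondrial one (7.14%), against 8.09%, and AAGGTCA, a nuclear receptor element, in neither class, against 5.38%.
Kars, chr8:112011344-112011373 (-), position -9: cccgccctctTTCCCGGAAgaggcaggact
Wars2, chr3:99141016-99141045 (+), position -64: cagaggacagGCGCATGCGtagtaagcaca

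Genes next to the synthetases in the pathway moved in both directions. Of 22 ATF4 and amino acid response genes, 20 were tested: 6 rose and 8 fell with LPS, and 7 rose and 3 fell with IFN-β, a balance that library-size scaling turned to 4 higher and 9 lower, and the letter as a block to 8 and 7. The list's median log2 fold changes were -0.20 and 0.00. Atf4 itself rose by 0.16 with LPS and 0.29 with IFN-β, but was at -0.42 and -0.01 under library-size scaling. Mthfd2, a mitochondrial one-carbon enzyme, rose by 1.44 and 0.76, whereas Aldh18a1 of proline synthesis fell by 1.69 and 0.60. Of 11 tested amino acid transporters, 4 rose and 7 fell with LPS and 3 rose and 5 fell with IFN-β (medians -0.58 and -0.32), and 4 rose with IFN-β with the letter as a block, Slc7a11 being added. Slc7a2, an arginine and lysine carrier, rose by 3.24 and 1.31, and the glutamine carrier Slc1a5 fell by 2.16 and 0.87. Slc7a1 of the same list fell by 0.84 and 0.72, and Slc7a3, at means of 0.421 to 1.01 CPM, rose by 1.26 and 1.02. Of the 4 kinases of the translation factor eIF2-alpha, 1 rose and 2 fell with LPS, and 1 rose and 1 fell with IFN-β. The interferon-induced Eif2ak2 rose by 2.08 and 1.61, and Eif2ak3 fell by 1.57 and 0.70. Eif2ak4 fell by 0.21 with LPS (adjusted p = 0.0263, edgeR's test). With IFN-β it was at -0.16 and not called (adjusted p = 0.0896, or 0.0278 with the letter as a block).

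Other steps of tRNA charging and elongation fell or were not called in most cases. The 4 genes for mitochondrial glutamine amidation and formyl-methionine gave 4 lower with LPS and 3 with IFN-β, led by Qrsl1, a subunit of the amidotransferase that stands in for a mitochondrial glutaminyl enzyme, at -1.54 and -1.09. Of 5 selenocysteine genes, 2 fell with LPS and 3 with IFN-β (3 and 5 with the letter as a block), with Pstk at -1.89 and -1.41. Of 4 genes for editing and related activities, 1 (Prorsd1) fell with each stimulus (2 and 3 genes with the letter as a block). Of 5 cytosolic elongation genes, 1 rose (Eef1a1, 0.28, which was -0.30 under library-size scaling) and 2 fell with LPS, and 4 fell with IFN-β. Of 9 mitochondrial translation factors, 1 rose (Gfm2, 0.27, which was -0.32 under library-size scaling) and 4 fell with LPS, and 5 fell with IFN-β (5 and 6 lower with the letter as a block). For list counts from edgeR's test with TMM factors and no block, the backgrounds are those given above for all tested genes. The shares of all genes called with the letter as a block or under library-size scaling are not given here. Those list counts have no background.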

How the data were processed

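The authors prepared libraries from total RNA with a ribosomal depletion kit, trimmed reads with Trim Galore (0.6.0), aligned them to mm10 (GRCm38) with STAR (2.7.8a per the submitters' processing notes; the study's methods name another version) and counted them on GENCODE M20 genes. They deposited raw counts per gene and library, neither normalized nor filtered. The strand setting is not given in the sources used here.

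Counts were fitted with edgeR 4.0.16 (limma 3.58.1, R 4.3.3): TMM factors, filterByExpr, 1 term per condition over 9 libraries, quasi-likelihood F-tests and Benjamini-Hochberg adjustment over 16260 of 55471 genes. Standard errors are the log2 fold change divided by the square root of F. A pseudocount of 0.5 CPM was used for single libraries and of 0.5 counts for ratios. The model was tested on simulated data. Annotation is GENCODE M21. Transcripts were aligned with blastn 2.17.0, and promoters come from RefSeq.

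The members and lists were chosen with earlier results of these data known; the mitochondrial rRNA genes were added later. Library values were given for the 4 largest called changes per class and stimulus and for Wars, Wars2, Gars, Kars, Lars2, Eprs and Tarsl2, with the 3 largest ratio changes per stimulus. Further genes named were chosen after their values were seen. Libraries of the same letter deviated together from their group means (9 pairs, r 0.134 to 0.546; 18 pairs of different letters, -0.48 to 0.0622), so the letter was used as a block in an alternative fit. Other alternatives were DESeq2 1.42.0, upper-quartile and library-size scaling, other filters on low counts, 2 groups alone and leaving out each library. A count of 3 was taken as the floor, for counting error only. The values of 1 member and 1 promoter match are not reported here.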

Additional observations from a re-analysis of the deposited data

How the results depend on the processing

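Precision rests on 3 libraries per group. The alternatives were planned, and the causes of the changes below were not tested beyond the scaling itself. With library-size scaling 1 cytosolic gene was called higher with IFN-β, 2 were lower and 11 mitochondrial genes higher with IFN-β than with LPS. The cytosolic medians were then -1.01 (LPS), -0.72 (IFN-β) and 0.48 (IFN-β minus LPS), and the mitochondrial ones -1.22, -0.89 and 0.39. The medians over all tested genes were -0.62, -0.32 and 0.29 under the same scaling. Aars turned to -0.34 with LPS, and Eprs and Hars to 0.03 each for IFN-β minus LPS. With upper-quartile factors the LPS medians were -0.52 (cytosolic) and -0.73 (mitochondrial), the cytosolic IFN-β median -0.49, and the mitochondrial IFN-β minus LPS median 0.13. DESeq2 gave a mitochondrial LPS median of -0.60, and 0.18 (cytosolic) and 0.08 (mitochondrial) for IFN-β minus LPS. Without a filter on low counts that mitochondrial median was 0.13 with 1 gene lower, Lars2, and with 2 groups alone it was 0.14. Without Gars and Kars the cytosolic LPS median was -0.58, and without Lars2 the mitochondrial medians were -0.67 (LPS) and 0.12 (IFN-β minus LPS). Requiring in addition a log2 change of 1 or more in size left 13 genes with LPS, 6 with IFN-β and 2 between them. The share of all tested genes at this threshold is not given here, so these counts have no background.

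With the library letter as a block (pairing by letter), 1 mitochondrial gene, Sars2, was lower with IFN-β than with LPS; beside the calls gained in the report it changed no other call of a synthetase gene.

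Leaving out each library in turn gave 0 to 1 mitochondrial genes higher with LPS (1, Wars2, without unstimulated C) and 0 to 1 lower for IFN-β minus LPS (Sars2 without LPS A or IFN-β B, Lars2 without LPS B or C). Mitochondrial LPS medians ran from -0.67 to -0.61, and the mitochondrial minus cytosolic difference from -0.26 to -0.19. Cytosolic IFN-β medians ran from -0.42 to -0.37. For IFN-β minus LPS, the cytosolic medians were 0.13 to 0.22, the mitochondrial ones 0.05 (without LPS A) to 0.18, and their difference -0.14 to 0.04, the last reversed from -0.09 without LPS C.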
